A study of Mus musculus with 9 samples.

Results

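The genes described here are 10 regulators of the passage from G1 into S phase in mouse embryonic stem cells (mESC). They are the D cyclins Ccnd1, Ccnd2 and Ccnd3, the E cyclins Ccne1 and Ccne2, the inhibitors of cyclin-dependent kinases (CDK) Cdkn1b, Cdkn2a and Cdkn2b, and the transcription factors Myc and Mycn. They were chosen by name, and every transcript cluster of the array that carries 1 of these symbols alone was taken. This gave 11 clusters for the 10 genes, of 21789 clusters with a single symbol and 19938 different symbols. Cdkn1b has 2 clusters, and the other 9 genes have 1 each.

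Each of 9 lines, all labelled as female and on a C57BL/6 background (C57BL/6J mice in the study's methods), was hybridized to 1 Affymetrix Mouse Gene ST array. The mESCWM lines (WM1, WM2 and WM3) were derived from blastocysts made by in vitro fertilization (IVF) and kept in the suboptimal condition, Whitten's medium with 20% O2. The mESCKAA lines (KAA1, KAA2 and KAA3) were derived from IVF blastocysts kept in the optimal condition, KSOM with amino acids and 5% O2. The control mESCFB lines (FB1, FB2 and FB3) were derived from blastocysts conceived by natural mating and flushed from the uterus. The females of all 3 groups had been injected with gonadotropins. All lines were derived from single blastocysts on CF-1 embryonic fibroblasts in serum, leukemia inhibitory factor (LIF) and inhibitors of GSK3 and MEK, were moved to gelatin to remove the feeder cells, and were collected at the eighth passage. Each line is a separate derivation, so the spread between lines includes differences between embryos. Growth of the lines was recorded in the study as days to confluence, unattached cells and doubling time, and the study reported no difference between the groups in these. Those records were not analysed here, and no level is set against the growth of its line.

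D cyclins bind CDK4 and CDK6 and start the phosphorylation of the retinoblastoma protein, and E cyclins bind CDK2 and complete it, which releases E2F factors and opens S phase. Cdkn1b encodes p27, an inhibitor of CDK2 complexes. Cdkn2b encodes p15Ink4b and Cdkn2a encodes p16Ink4a, inhibitors of CDK4 and CDK6, while a different reading frame of Cdkn2a gives p19Arf, which stabilizes p53. Myc and Mycn bind DNA with their partner Max and drive growth and ribosome production. Mouse embryonic stem cells are known for a short G1 phase, for abundant cyclin E, and for a dependence of self-renewal on Myc downstream of LIF.

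Sequences before the transcript starts were matched by symbol in RefSeq (build GRCm38.p6), which gave 8 starts for 6 of the 10 genes (Ccnd3, Ccne1, Cdkn1b, Cdkn2a, Cdkn2b and Mycn). Both starts of Cdkn2a are shown because the gene has a single cluster, and which of their transcripts it reads was not tested. The first lies upstream and gives the p19Arf transcript, and the other gives the p16Ink4a transcript. Each line holds the 100 bases before the start, on the minus strand of chromosome 4, with no part in capitals. The p19Arf stretch is at chr4:89294620-89294719 and the p16Ink4a stretch is at chr4:89282193-89282292.
Cdkn2a, p19Arf start: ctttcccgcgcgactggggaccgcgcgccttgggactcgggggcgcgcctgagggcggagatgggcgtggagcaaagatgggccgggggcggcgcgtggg
Cdkn2a, p16Ink4a start: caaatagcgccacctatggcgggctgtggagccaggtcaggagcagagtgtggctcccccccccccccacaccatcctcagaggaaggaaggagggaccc
Cdkn2a and Cdkn2b lie beside each other on chromosome 4, with 1 long noncoding RNA gene, Gm12610, between them in the annotation.

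The 250 bases before each start were searched on both strands for the E2F letters TTTCGCGC or TTTGGCGC, and for the E-box letters CACGTG to which Myc and Max can bind. E2F letters were found at 1 of the 8 member starts, that of Mycn, and at 0.654% of 32851 starts in the table. E-box letters were found at 0 of the 8 member starts and at 6.02% of all starts. The Mycn stretch is shown for these matches, which are in capitals, at chr12:12941837-12942086 on the minus strand. Of its 3 matches, 2 overlap on opposite strands. A match of letters is a description and not a binding site.
Mycn: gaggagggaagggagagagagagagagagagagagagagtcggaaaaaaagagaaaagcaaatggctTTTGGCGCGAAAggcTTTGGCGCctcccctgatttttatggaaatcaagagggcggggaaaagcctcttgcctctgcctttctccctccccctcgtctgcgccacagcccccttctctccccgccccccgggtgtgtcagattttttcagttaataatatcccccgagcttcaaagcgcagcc

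All values are log2 levels made by the authors with RMA, so that a difference of 1 is a doubling. A difference is the mean log2 level of the group named first minus that of the other. It was tested two-sided in a limma fit of the 9 lines, with p-values adjusted by Benjamini-Hochberg across 23410 clusters and a threshold of 0.05. Errors are limma's standard errors (SE) or 95% confidence intervals. The number of arrays limits the precision. Levels of different clusters depend on their probes and are not set against each other. As a description of the low end of the signal, 1035 clusters of olfactory receptor genes had a median mean level of 2.12 and a 95th percentile of 3.63, and the member clusters lay at 4.97 or more in every line. The highest olfactory receptor cluster had a mean level of 6.09, above the mean level of Cdkn2a (5.43). The files used here give no detection call. Exactly the same value occurred in more than 1 line for 5 of the 11 member clusters and for 62.3% of all tested clusters.

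Some lines stood apart in markers. Eif2s3y, a Y-linked gene, was at 5.19 in WM3, 3.72 in KAA2 and 4.78 in FB1, and at 1.77 to 2.20 in the other 6 lines, although all lines are labelled female. The mean over all 7 measured Y-linked genes, 6 of which lay under the 95th percentile of the olfactory receptor clusters, was 3.12 in WM3, 2.73 in KAA2 and 2.69 in FB1, and 2.17 to 2.37 in the other 6 lines. This mean includes Eif2s3y itself, so it is not a separate measure, and a mean without Eif2s3y was not computed. Sry, for which the methods of the study describe a PCR on the DNA of the lines, was at 4.51 to 4.796 in all 9 lines. This level did not separate WM3, KAA2 and FB1 from the other lines, and whether it exceeds the background of its probes was not tested. Of 14 stem cell markers, 0 lay under the 95th percentile of the olfactory receptor clusters. The mean level of these markers was 8.79 to 9.26 in mESCWM, 8.83 to 9.00 in mESCKAA and 8.96 to 9.24 in mESCFB, and 4 of 14 had a higher mean in mESCWM than in mESCFB. Pou5f1, which encodes Oct4, was at 10.07 to 10.16 in mESCWM and 10.31 to 10.43 in mESCFB, whereas Nanog overlapped, at 9.09 to 10.35 in mESCWM and 9.02 to 10.10 in mESCFB. The 27 measured fibroblast markers had a mean level of 5.32 to 5.50 in mESCWM, 5.21 to 5.38 in mESCKAA and 5.14 to 5.21 in mESCFB, and 8 of them, among them Postn, lay under the 95th percentile of the olfactory receptor clusters. The 16 primitive endoderm markers had a mean level of 6.10 in KAA1 and 5.81 in FB1, against 4.99 to 5.20 in the other 7 lines.

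Among the D cyclins, Ccnd1 held nearly the same level in all lines, while Ccnd2 and Ccnd3 differed between lines of the same group. Ccnd1, the D cyclin that responds most directly to ERK signaling in many cells, was at 10.09, 9.87 and 10.002 in WM1, WM2 and WM3, at 9.96, 10.05 and 10.12 in KAA1, KAA2 and KAA3, and at 10.02, 9.95 and 10.04 in FB1, FB2 and FB3. All 3 groups overlapped, and the whole range over the 9 lines was 0.25. The difference from mESCFB was -0.015 (95% interval -0.20 to 0.17) in mESCWM and 0.042 (95% interval -0.14 to 0.23) in mESCKAA. The interval thus reached no further than 0.23 in either direction.

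Ccnd2 had the widest range of the members, at 1.41. It was at 6.06, 7.27 and 6.84 in WM1, WM2 and WM3, at 7.46, 6.25 and 6.86 in KAA1, KAA2 and KAA3, and at 7.18, 6.86 and 6.53 in FB1, FB2 and FB3. WM1 and KAA2 were the lowest lines and KAA1 and WM2 the highest, so both IVF groups spanned the range of the control lines. The SD within groups was 0.53, larger than in 98.5% of the clusters whose level reaches the median of all. Its differences were -0.13 (SE 0.37) in mESCWM and 0.00060 (SE 0.37) in mESCKAA relative to mESCFB.

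Ccnd3 was at 8.44, 8.75 and 8.44 in WM1, WM2 and WM3, at 8.32, 8.42 and 8.12 in KAA1, KAA2 and KAA3, and at 8.25, 9.14 and 8.67 in FB1, FB2 and FB3. FB2 was the highest line and FB1 lay among the mESCKAA lines. All mESCWM lines lay above all mESCKAA lines, with a gap of 0.020 between the nearest lines. The difference between mESCWM and mESCKAA was 0.26 (SE 0.21, limma adjusted p = 0.819), and that between mESCKAA and mESCFB was -0.40 (SE 0.21, limma adjusted p = 0.918). The difference between mESCKAA and mESCFB was -0.18 without FB2 and -0.62 without FB1, and that between mESCWM and mESCKAA was 0.15 without WM2.

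The E cyclins had lower means in mESCWM than in mESCFB, and neither difference passed limma. Ccne1 was at 9.64, 9.97 and 10.07 in WM1, WM2 and WM3, at 10.31, 9.85 and 10.02 in KAA1, KAA2 and KAA3, and at 10.33, 9.999 and 10.09 in FB1, FB2 and FB3. WM1 was lowest and FB1 and KAA1 highest, and the groups overlapped. Ccne1 differed by -0.25 (SE 0.16, limma adjusted p = 0.840) between mESCWM and mESCFB and by -0.080 (SE 0.16) between mESCKAA and mESCFB. The first of these differences was -0.12 without WM1 and -0.15 without FB1.

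Ccne2 was at 6.67, 6.04 and 6.67 in WM1, WM2 and WM3, at 6.48, 6.54 and 6.98 in KAA1, KAA2 and KAA3, and at 6.79, 6.75 and 6.79 in FB1, FB2 and FB3. The control lines lay within 0.043 of each other, and all mESCWM lines lay below them. The group means were 6.46 ± 0.37 in mESCWM and 6.78 ± 0.023 in mESCFB (SD, n = 3 lines each), and their difference was -0.32 (SE 0.19, limma adjusted p = 0.831). WM2 set most of it, as the difference was -0.10 without WM2. The mESCKAA lines lay on both sides of the control lines (difference -0.11, SE 0.19).

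**Figure D1:**
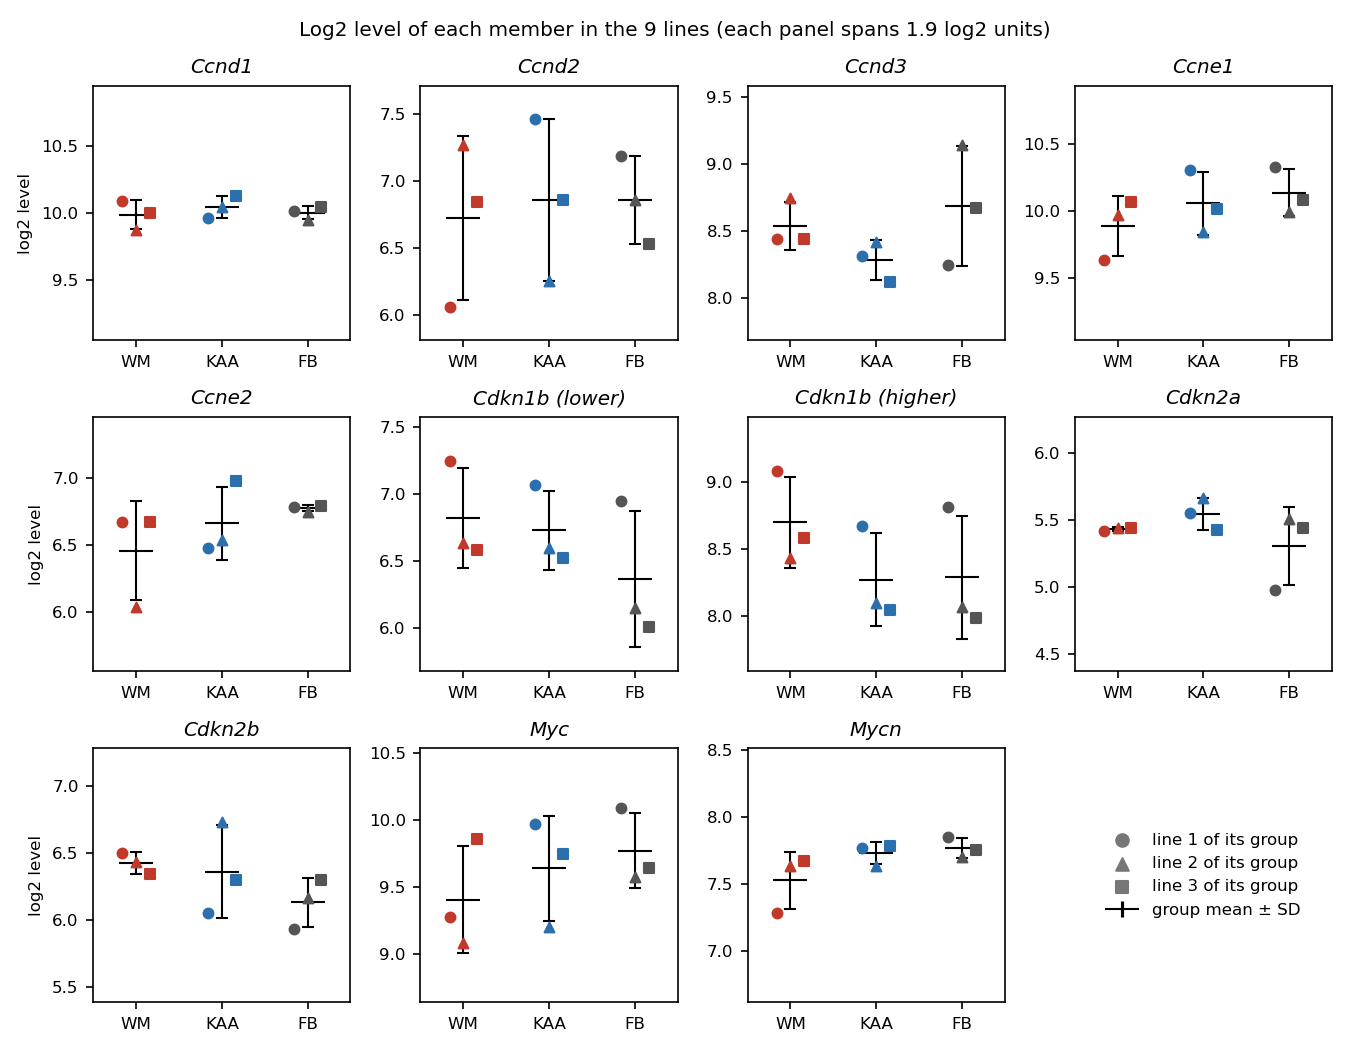
Log2 level (y axis) of each member cluster in the 9 lines, by group (x axis); point shapes give the line number within its group and bars give the group mean ± SD. Ccnd1 spans 0.25 over all lines and Ccnd2 spans 1.41, and in both Cdkn1b clusters line 1 is the highest of its group in all 3 groups.

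Of the CDK inhibitors, Cdkn1b had the largest difference of any member in any comparison, and it was measured by 2 clusters. The cluster with the higher mean was at 9.09, 8.43 and 8.58 in WM1, WM2 and WM3, at 8.67, 8.10 and 8.05 in KAA1, KAA2 and KAA3, and at 8.82, 8.06 and 7.99 in FB1, FB2 and FB3. The cluster with the lower mean was at 7.24, 6.63 and 6.58 in WM1, WM2 and WM3, at 7.06, 6.60 and 6.52 in KAA1, KAA2 and KAA3, and at 6.95, 6.15 and 6.00 in FB1, FB2 and FB3. In both clusters line 1 was the highest of its group in all 3 groups, by at least 0.47, so that FB1 overlapped the mESCWM lines. All 3 mESCWM lines lay above the mean of mESCFB in both clusters.

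The clusters of Cdkn1b gave similar differences between mESCWM and mESCFB, of 0.41 (SE 0.27, limma adjusted p = 0.848) and 0.45 (SE 0.28, limma adjusted p = 0.837). They parted in mESCKAA, where the difference from mESCFB was -0.017 (SE 0.27) in the cluster with the higher mean and 0.36 (SE 0.28) in the other. Between mESCWM and mESCKAA the differences were 0.43 (SE 0.27) and 0.090 (SE 0.28). The mean of both clusters gave 0.17 between mESCKAA and mESCFB. Single lines moved these values. Between mESCWM and mESCFB the differences were 0.22 and 0.24 without WM1, 0.26 and 0.27 without FB3, and 0.67 and 0.74 without FB1. Between mESCKAA and mESCFB the cluster with the lower mean ran from 0.18 without FB3 to 0.65 without FB1, and it was 0.19 without KAA1. Between mESCWM and mESCKAA the cluster with the higher mean gave 0.23 without WM1. Across the 9 lines the clusters had a Pearson's r of 0.88 (Spearman's rho 0.92, r = 0.79 without the 2 lines farthest from the median). Which transcripts each cluster reads was not tested.

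Cdkn2a, whose single cluster is not assigned here to p16Ink4a or p19Arf, was at 5.41, 5.44 and 5.44 in WM1, WM2 and WM3, at 5.55, 5.66 and 5.42 in KAA1, KAA2 and KAA3, and at 4.97, 5.50 and 5.44 in FB1, FB2 and FB3. The other 8 lines lay within 0.25 of each other, and FB1 lay 0.44 below the lowest of them. The difference from mESCFB was 0.24 (SE 0.14, limma adjusted p = 0.918) in mESCKAA and 0.13 (SE 0.14) in mESCWM. Without FB1 these were 0.075 and -0.041, so the direction in mESCWM rests on that line.

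Its neighbour Cdkn2b was at 6.50, 6.44 and 6.35 in WM1, WM2 and WM3, at 6.06, 6.74 and 6.30 in KAA1, KAA2 and KAA3, and at 5.94, 6.17 and 6.30 in FB1, FB2 and FB3. All mESCWM lines lay above all mESCFB lines, by 0.043 at the nearest, and KAA2 was the highest of all lines. The difference from mESCFB was 0.29 (SE 0.17, limma adjusted p = 0.823) in mESCWM and 0.23 (SE 0.17, limma adjusted p = 0.918) in mESCKAA. Without KAA2 the difference in mESCKAA was 0.043, and without KAA1 it was 0.38. Without FB1 the differences were 0.19 in mESCWM and 0.13 in mESCKAA. The mean of the fibroblast markers also lay higher in every mESCWM line (5.32 to 5.50) than in every mESCFB line (5.14 to 5.21), and their part in the levels of Cdkn2b was not tested. Of the 27 fibroblast markers, 23 had a higher mean in mESCWM than in mESCFB and 4 a lower one. Thy1 overlapped between these groups, at 6.22 to 6.62 in mESCWM and 6.25 to 6.33 in mESCFB.

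Myc was at 9.28, 9.08 and 9.85 in WM1, WM2 and WM3, at 9.97, 9.20 and 9.75 in KAA1, KAA2 and KAA3, and at 10.09, 9.58 and 9.64 in FB1, FB2 and FB3. WM1, WM2 and KAA2 were the low lines, below every control line, and WM3 lay above 2 of the 3 control lines. The group means were 9.41 ± 0.40 in mESCWM, 9.64 ± 0.39 in mESCKAA and 9.77 ± 0.28 in mESCFB (SD, n = 3 lines each). The difference from mESCFB was -0.37 (SE 0.25, limma adjusted p = 0.853) in mESCWM and -0.13 (SE 0.25) in mESCKAA. In mESCWM it was -0.59 without WM3, -0.20 without WM2 and -0.21 without FB1. Between mESCWM and mESCKAA it was -0.23 (SE 0.25), and it ran from -0.46 without WM3 to -0.069 without KAA1.

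Mycn had the smallest unadjusted p of the members. It was at 7.28, 7.63 and 7.67 in WM1, WM2 and WM3, at 7.77, 7.64 and 7.79 in KAA1, KAA2 and KAA3, and at 7.85, 7.70 and 7.75 in FB1, FB2 and FB3. All mESCWM lines lay below all mESCFB lines, but only by 0.035 at the nearest, and WM1 was the lowest line. Mycn differed by -0.24 (SE 0.11) between mESCWM and mESCFB, with an unadjusted limma p of 0.0608 and an adjusted p of 0.819. Between mESCKAA and mESCFB it differed by -0.038 (SE 0.11). Between mESCWM and mESCKAA it differed by -0.20 (SE 0.11). Without WM1 these differences of mESCWM were -0.12 from mESCFB and -0.080 from mESCKAA.

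**Figure D2:**
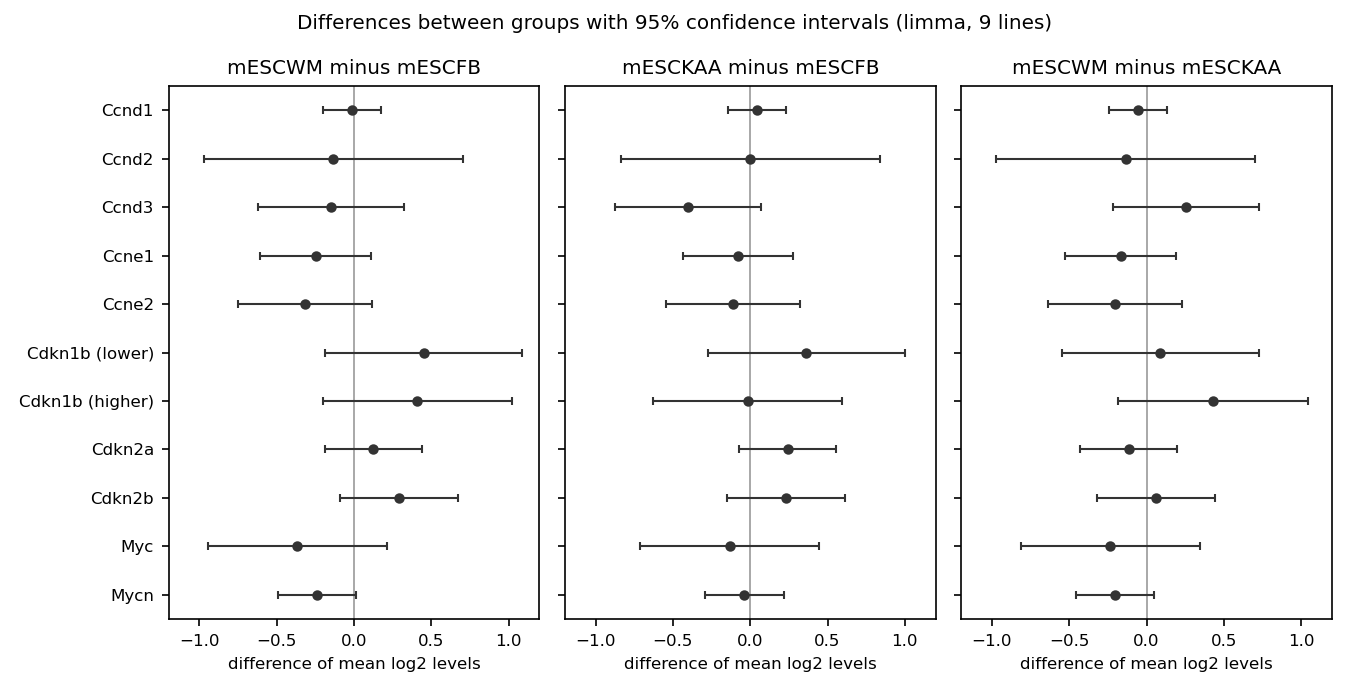
Difference of mean log2 levels (x axis) of each member cluster (y axis) in the 3 comparisons, with 95% confidence intervals from limma. Every interval spans 0; those of Ccnd1 are the narrowest (-0.20 to 0.17 between mESCWM and mESCFB) and those of Ccnd2 the widest (-0.97 to 0.70).

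Between mESCWM and mESCFB, 7 of the 10 members were lower in mESCWM and 3 (Cdkn1b, Cdkn2a and Cdkn2b) were higher. Of the 4 other CDK inhibitors measured, 2 were higher and 2 lower. The directions of Ccnd1, Ccnd2, Ccnd3 and Cdkn2a changed when a single line was left out. The share of all clusters with a lower mean is not given, so counts of directions in this and the following comparisons have no background. The median of the 10 differences was -0.14, against 0.0046 over all tested clusters and -0.0089 over those at or above the median level, which all members reach. Of these differences, 0 of 10 passed an adjusted p of 0.05 in limma, where 0.0% of all tested clusters passed, and 0 of 10 had an unadjusted p under 0.05, where 5.89% of all did. The rank product, the test named in the methods of the study, called 0 of 10 at a percentage of false positives under 0.05, with 0.00427% of all clusters called higher and 0.115% called lower. The mESCWM lines all lay below the mESCFB lines in 2 of 10 members (Ccne2 and Mycn), against 4.55% of all clusters, and above them in 1 (Cdkn2b), against 3.58%, which together makes 3 of 10 members against 8.13% of all clusters. Whether the members as a group differ from the background was not tested.

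Between mESCKAA and mESCFB, 4 members were higher and 6 were lower in mESCKAA. The median difference was -0.027, against 0.0067 over all clusters and -0.029 over those at or above the median level, so the members lay near that background. Ccnd3 had the largest difference (-0.40) and Cdkn2a the largest in the other direction (0.24). In limma 0 of 10 passed the adjusted threshold (0.0% of all clusters), 0 had an unadjusted p under 0.05 (4.81% of all), and the groups overlapped in all 10 (they did not overlap in 8.08% of all clusters, with mESCKAA higher in 4.38% and lower in 3.7%). The rank product called 0 of 10, with 0.0128% of all clusters called higher and 0.094% called lower.

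Between mESCWM and mESCKAA, 3 members were higher and 7 lower in mESCWM. The median was -0.13, against -0.0068 over all clusters and 0.020 over those at or above the median level. Cdkn1b differed most (0.43 in the cluster with the higher mean), followed by Ccnd3 (0.26), Myc (-0.23), Ccne2 (-0.20) and Mycn (-0.20). In limma 0 of 10 passed the adjusted threshold (0.0% of all clusters) and 0 had an unadjusted p under 0.05 (6.29% of all). The rank product called 0 of 10, with 0.256% of all clusters called higher and 0.0299% called lower. The groups did not overlap in 1 of 10 members, Ccnd3, where the mESCWM lines lay higher, against 8.66% of all clusters (4.03% with mESCWM higher and 4.63% with mESCWM lower). The 3 comparisons share lines, so their values are not independent of each other.

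Without the lines that stood apart in Eif2s3y (WM3, KAA2 and FB1), 0 of 10 members passed limma in any comparison, and several differences were larger. Between mESCWM and mESCFB, Cdkn1b differed by 0.73 and 0.86 in its 2 clusters and Myc by -0.43, with limma adjusted p-values of 0.561, 0.460 and 0.421. Between mESCKAA and mESCFB, Ccnd3 differed by -0.69, and between mESCWM and mESCKAA, Myc differed by -0.68. These values rest on 2 lines per group, and the part of the Eif2s3y lines in the spread of the members was not tested.

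The group of a line accounted for 46.6% of the variance of Mycn over the 9 lines, 32.9% of that of Ccnd3 and 30.9% of that of Cdkn2b. The share was 30.7% for Cdkn2a, 28.3% for the Cdkn1b cluster with the higher mean, 26.8% for Ccne2 and 26.0% for Ccne1. It was 20.7% for Myc, 11.2% for Ccnd1 and 2.09% for Ccnd2. With 3 lines per group, part of such a share arises without any group difference, so the shares do not weigh groups against lines. Of the 10 members, the SD within groups of Ccnd2, Cdkn1b and Myc was larger than in 98.5%, 94.95% and 93.6% of the clusters with a level no lower than the median, and that of Ccnd1 was larger than in 14.3%.

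**Figure D3:**
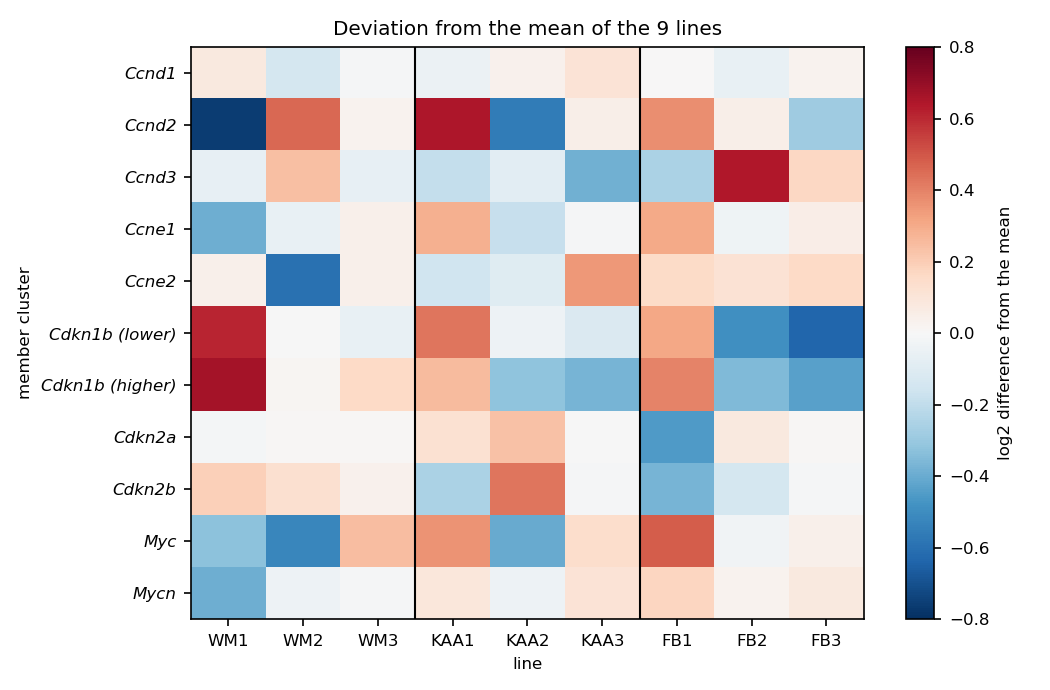
Difference of each member cluster (y axis) in each line (x axis) from its mean over the 9 lines, on the log2 scale, with groups parted by vertical lines. FB1 and KAA1 are high in Ccnd2, Ccne1, Myc and Cdkn1b, and WM1 is low in Ccnd2, Ccne1, Myc and Mycn and high in Cdkn1b.

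Several members followed each other over the lines. Among 55 pairs of member clusters, Ccne1 and Mycn had an r of 0.87 (rho 0.85) over the 9 lines, and Ccne1 and Myc one of 0.82 (rho 0.88). Without the 2 lines farthest from the median of Ccne1 these were 0.64 and 0.79. Cdkn2b ran against Myc (r = -0.83, rho = -0.79) and against Ccne1 (r = -0.83, rho = -0.85), at -0.73 and -0.84 without the 2 farthest lines. FB1 and KAA1 were the highest lines in both Myc and Ccne1 and the lowest in Cdkn2b, and they were also the lines with the highest primitive endoderm markers, whose part in this was not tested. These values are a description over 9 lines that share their array processing.

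Among 10930 clusters of other genes that reach the median level, those most like a member over the 9 lines were named by Pearson's r. Ccnd3 was closest to Pycard, an adaptor of inflammasomes (r = 0.986), and to Eras, a Ras protein of embryonic stem cells (r = 0.964). The cluster of Cdkn1b with the higher mean was closest to Mki67, the proliferation antigen (r = 0.967), and the other cluster to Peak1, a pseudokinase (r = 0.974). Myc was closest to Senp2, a SUMO protease (r = 0.968), and Ccne1 to Slc39a14, a metal transporter (r = 0.966), and to Pdhb, a subunit of pyruvate dehydrogenase (r = 0.965). Each of these is the highest or second highest for its cluster over the candidates (10929 for Cdkn1b). Among so many candidates and 9 lines a high r is common. The closest r ran from 0.950 (Cdkn2b with Fgf8) to 0.986 over the member clusters. For Cdkn2a an olfactory receptor gene, Olfr411, was second (r = 0.971). Whether any of these pairs is related was not tested.

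Genes around the members were taken from lists of the cell cycle and of Myc. Of the other cyclins, 5 of 16 were higher in mESCWM than in mESCFB, with a median of -0.067, and 0 passed limma. Ccni, a cyclin expressed in many tissues, was at 8.85 ± 0.16 in mESCWM and 8.45 ± 0.26 in mESCFB (SD, n = 3 lines each), a difference of 0.40 (SE 0.14, limma adjusted p = 0.819). Of 11 CDK genes and activators, 6 were higher in mESCWM than in mESCFB and 0 passed. Cdk6, a partner of the D cyclins, was at 6.88 ± 0.21 in mESCWM, 6.65 ± 0.23 in mESCKAA and 6.34 ± 0.40 in mESCFB (SD, n = 3 lines each), with all mESCWM lines above all mESCFB lines and a difference of 0.54 (SE 0.21, limma adjusted p = 0.819). Cdk4, the other partner, differed by -0.13 (SE 0.087). Of the other CDK inhibitors, 4 of 5 were measured and 0 passed; the imprinted gene Cdkn1c, which encodes p57, differed by 0.65 (SE 0.33, limma adjusted p = 0.918) between mESCKAA and mESCFB and by 0.26 (SE 0.33) between mESCWM and mESCFB.

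Of 23 E2F target genes of S phase, 22 were lower in mESCKAA than in mESCFB, with a median of -0.084 against 0.0067 over all clusters. In mESCWM 16 were lower, with a median of -0.060 against 0.0046. Over the clusters at or above the median level, the medians were -0.029 in mESCKAA and -0.0089 in mESCWM, relative to mESCFB. The share of all clusters with a lower mean is not given here, so the counts of lower genes in these lists have no background. No single gene of the list passed limma in either comparison (0 of 23). In mESCKAA, Prim1 and Pola1, subunits of the primase and polymerase that start DNA strands, differed from mESCFB by -0.28 (SE 0.098) and -0.51 (SE 0.19), both with a limma adjusted p of 0.918. In mESCWM, Rpa2, a subunit of the protein that coats single-stranded DNA, differed from mESCFB by -0.33 (SE 0.11, limma adjusted p = 0.819). Of 15 genes of the Rb and E2F family, 11 were lower in mESCKAA than in mESCFB (median -0.043) and 9 in mESCWM (median -0.063), and 0 passed. Tfdp1, a partner that E2F factors need to bind DNA, lay lower in all mESCWM lines than in all mESCFB lines (difference -0.20, SE 0.086). E2f8, a repressor of the family, differed by -0.29 (SE 0.11, limma adjusted p = 0.918) between mESCKAA and mESCFB. Of 19 mitosis genes, 16 were lower in mESCKAA than in mESCFB (median -0.053, against -0.029 over clusters at or above the median level). In mESCWM 16 were higher than in mESCKAA (median 0.15, against -0.0068 over all clusters and 0.020 over those at or above the median level). In either comparison 0 passed. Plk1, a kinase of mitotic entry, was higher in all mESCWM lines than in all mESCKAA lines (difference 0.18, SE 0.078), and Top2a, a topoisomerase that parts sister chromatids, differed by 0.36 (SE 0.16), both with a limma adjusted p of 0.771. Cenpf, a kinetochore protein, differed by 0.51 (SE 0.25, limma adjusted p = 0.819) between mESCWM and mESCFB.

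In the list on turnover of cyclin E, p27 and Myc, 13 of 13 genes were lower in mESCKAA than in mESCFB. In mESCWM 10 of 13 were lower. The medians were -0.14 and -0.069, against -0.029 and -0.0089 over clusters at or above the median level. These counts too have no background. Of the 13 genes, 0 passed limma in either comparison. The list also holds Fbxo31, an F-box protein known in human cells to target cyclin D1. Fbxo31 was at 5.54 ± 0.11 in mESCKAA and 5.82 ± 0.14 in mESCFB (SD, n = 3 lines each), a difference of -0.29 (SE 0.10, limma adjusted p = 0.918).

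In the network of Myc and Max, 7 of 13 genes were higher in mESCWM than in mESCFB and 7 of 13 in mESCKAA, with medians of 0.030 and 0.0016, and 0 passed. Max, the partner of Myc, was at 9.11 ± 0.15 in mESCWM and 9.34 ± 0.040 in mESCFB (SD, n = 3 lines each), with a difference of -0.23 (SE 0.093, limma adjusted p = 0.819), and Mnt, which binds Max and opposes Myc, differed by 0.17 (SE 0.077, limma adjusted p = 0.819). The mESCWM lines of these genes did not overlap the mESCFB lines. Of 22 Myc target genes, 16 were lower in mESCWM and 16 in mESCKAA than in mESCFB, with medians of -0.037 and -0.043. Polr1b, a subunit of RNA polymerase I, differed by -0.30 (SE 0.15) in mESCWM, and 0 of 22 passed in either comparison.

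Upstream, the response genes of ERK signaling, to which Ccnd1 and Myc can respond, had a median of -0.081 between mESCWM and mESCFB, with 7 of 12 lower and 0 past limma's threshold. Spry4, an inhibitor of the pathway, was at 7.28 ± 0.29 in mESCWM and 8.50 ± 0.092 in mESCFB (SD, n = 3 lines each), a difference of -1.22 (SE 0.14, limma adjusted p = 0.445), and the rank product called it lower. Dusp6, a phosphatase that acts on ERK, differed by -0.70 (SE 0.23, limma adjusted p = 0.819). The other direction was seen in 5 of the 12 response genes, which were higher in mESCWM. Between the same groups Ccnd1 differed by -0.015 and Myc by -0.37, and their relation to the ERK genes was not tested. Of 8 measured Wnt response genes, 5 were higher in mESCWM and 6 in mESCKAA than in mESCFB (medians 0.074 and 0.19). Of 12 genes of the LIF and STAT3 response, 9 and 6 were higher (medians 0.046 and 0.019). Of 14 genes of Polycomb and other regulators of the Cdkn2a and Cdkn2b locus, 10 were lower in mESCWM than in mESCFB (median -0.044) and 10 were lower in mESCKAA (median -0.063). Among them Eed, a subunit of Polycomb repressive complex 2, was lower in all mESCWM lines than in all mESCFB lines (difference -0.28, SE 0.11, limma adjusted p = 0.819). Of 9 measured p53 pathway genes, 6 were lower in mESCWM than in mESCFB and 6 were lower in mESCKAA. Mdm2, the p53 inhibitor that p19Arf binds, was among them in both counts (differences -0.28 in mESCWM and -0.16 in mESCKAA). In these lists 0 genes passed limma against mESCFB.

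**Figure D4:**
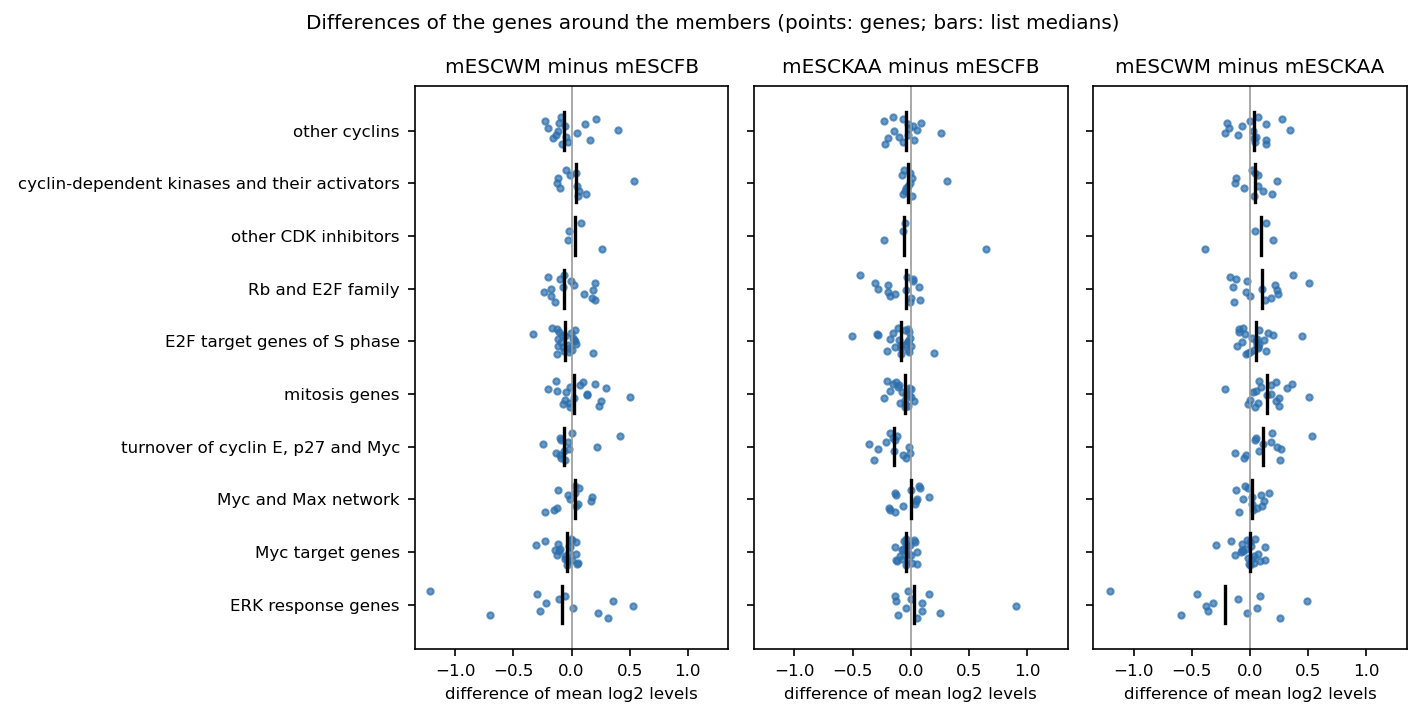
Difference of mean log2 levels (x axis) of genes around the members, by list (y axis), in the 3 comparisons; points are genes and bars are list medians. Most genes lie within 0.3 of 0, and the 23 E2F target genes have a median of -0.084 between mESCKAA and mESCFB.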

How the data were processed

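RNA of 9 lines, 3 per group, was hybridized to 1 array each. The authors deposited log2 values made by RMA, which corrects the background, normalizes between arrays and summarizes the probes of each transcript cluster. Their processing notes name Affymetrix Expression Console and R 3.1.0. The genome build of the clusters is not given in the sources used here. The scale was read from the values, which run from 0.56 to 13.3. Array medians lay between 4.64 and 4.70, and the deposited values were used without further normalization.

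Groups and line numbers came from the sample titles. Of 35556 clusters, 23410 with at least 1 annotated gene were tested, of which 1621 carry several symbols and name no gene here. Gene names follow the platform annotation, whose Entrez identifiers matched RefSeq for all 10 members. The differences come from limma 3.58.1 under R 4.3.3, with lmFit and eBayes run on a model of 3 group means. limma leads because it gives each difference an error. The rank product was computed with numpy 2.4.6 on 9 pairwise differences, with 100 permutations within arrays. Both were run on simulated data with independent lines and shifts larger than any member difference. That run cannot show whether differences of the size seen here would be found. A gene with several clusters was represented by the one with the highest mean, which applied to Cdkn1b among the members.

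The members and 19 gene lists were chosen with earlier results of these data known. The text names all members, some of the genes that are among the 2 smallest p of a list in a comparison, the clusters most like a member, and set markers. Alternatives were all clusters, quantile normalization, median centring, only clusters that reach the median level, the line numbers as a block, trended and robust eBayes (statmod 1.5.0), 2 groups only, mean of clusters, each line left out, and the 3 lines with the highest Eif2s3y left out. Samples sharing a number did not meet the test for pairing, which asks for a correlation over 0.1 in every pair. Motifs and tables were handled in Python 3.11.15 with pandas 2.3.3 and scipy 1.17.1, and plots with matplotlib 3.10.9.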

Additional observations from a re-analysis of the deposited data

How the results depend on the processing

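No member passed limma under 19 other settings or the rank product where it was run again, with quantile normalization, other sets of clusters, lines left out and a looser threshold (lowest limma adjusted p 0.421, for Myc between mESCWM and mESCFB without WM3, KAA2 and FB1), and 36 of 627 member differences changed direction. Many of the 627 could not change. Settings that alter only the error estimate or the clusters tested keep each difference, as does leaving out a line of the group not compared. The share that changed is therefore no measure of stability. With each line left out in turn, limma passed 0 to 1 of all clusters between mESCWM and mESCFB and 0 to 1 between mESCWM and mESCKAA (1 without WM3 in both). The members' median ran from -0.20 (without FB3) to -0.081 (without WM1) between mESCWM and mESCFB, from -0.13 to 0.042 between mESCKAA and mESCFB and from -0.16 to -0.036 between mESCWM and mESCKAA. With a line left out, differences between mESCWM and mESCFB ran from -0.065 to 0.043 for Ccnd1, -0.41 to 0.20 for Ccnd2, -0.37 to 0.080 for Ccnd3 and -0.041 to 0.22 for Cdkn2a. Between mESCKAA and mESCFB they ran from -0.30 to 0.30 for Ccnd2, -0.21 to 0.026 for Ccne1, -0.22 to 0.25 for Cdkn1b, -0.30 to 0.085 for Myc and -0.070 to 0.0090 for Mycn. Between mESCWM and mESCKAA they ran from -0.11 to 0.00096 for Ccnd1, -0.44 to 0.20 for Ccnd2, -0.31 to 0.0077 for Ccne2, -0.091 to 0.25 for Cdkn2b and -0.12 to 0.26 for the cluster of Cdkn1b with the lower mean. Quantile normalization turned Ccnd1 in mESCWM to 0.046 and Cdkn1b and Mycn in mESCKAA to 0.032 and 0.011, all relative to mESCFB, and the members' median in mESCKAA to 0.021. Between mESCKAA and mESCFB, median centring turned Ccnd2 to -0.014, and the mean of both clusters turned Cdkn1b to 0.17. Without the 3 lines with the highest Eif2s3y (WM3, KAA2 and FB1), Cdkn2a turned to -0.045 in mESCWM. In mESCKAA the same setting gave 0.12 for Ccne1, 0.33 for Cdkn1b, -0.056 for Cdkn2b, 0.25 for Myc and 0.049 for Mycn, and in mESCWM 0.73 and 0.86 for the clusters of Cdkn1b, all relative to mESCFB. The cause of these changes was not tested. Same-numbered lines had correlations of -0.013 to 0.33 (over 0.1 in 5 of 9 pairs), and 8 of 9 lines correlated best with a line of their own number, a hint from the data and not the design. With the replicate block, limma passed 0 members in each comparison (adjusted p 0.525 and 0.517 for the clusters of Cdkn1b between mESCWM and mESCFB), with medians of -0.14 between mESCWM and mESCFB, -0.027 between mESCKAA and mESCFB and -0.13 between mESCWM and mESCKAA.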
